A study of Homo sapiens with 8 samples.

Results

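Embryoid bodies (EB) of the human embryonic stem cell line H9 were compared with undifferentiated H9 cells, with 2 arrays in each state, 4 of the 8 arrays of the series. The comparison covered all 19775 genes that had a probe set annotated to exactly 1 gene symbol, the same genes as in the whole series. H9 and H1 are established lines of pluripotent cells from early human embryos, and the labels name no introduced genetic change in either. Undifferentiated H9 grew in mTeSR1, a defined medium that keeps the cells self-renewing. For the EB group, H9 cells were separated with Accutase and held for 3 days as floating aggregates on ultra low attachment plates in hESGM without bFGF, in the presence of 10 µM Y-27632, an inhibitor of the kinase ROCK. H1, used here as the reference line, was sampled in the same 2 states with 2 arrays each. State therefore changed together with medium, attachment, bFGF and Y-27632, and these cannot be told apart. The labels call the 2 arrays of a state biological replicates without naming their cultures, so p-values measure the spread between these samples, which may be technical.

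An embryoid body is an aggregate in which pluripotent cells leave self-renewal and begin to form cell types of the 3 germ layers. Bone morphogenetic protein (BMP), WNT, NODAL and FGF signals direct this choice in the embryo: NODAL and WNT favour mesoderm and endoderm, BMP and WNT at intermediate levels the neural crest, and low levels of these signals the anterior neural plate. Extraembryonic endoderm of the yolk sac is the first tissue of the embryo to make plasma proteins such as alpha-fetoprotein and the apolipoproteins, which the liver makes later.

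Signals were MAS5 intensities on a linear scale, scaled by the submitters to a trimmed mean of 500.1 on every array, with array medians from 68.7 to 86.0. A probe set below the median of its own array is called dim here. The 2 arrays labelled H9 EB correlated with each other at r = 0.992 over genes and the 2 undifferentiated H9 arrays at 0.991. Across states within H9 the correlation was 0.906 to 0.91, whereas the arrays labelled H9 EB correlated at 0.982 to 0.983 with the H1 EB arrays. The 3' to 5' signal ratio of the GAPDH control probe sets, a measure of RNA integrity and labelling, was 0.848 and 0.889 in undifferentiated H9 and 0.965 and 0.918 in the EB group. Pluripotency markers were bright in undifferentiated H9, with LIN28A at 25880 and 23370 and SOX2 at 18390 and 16550, both far above the array medians.

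The identity of the arrays labelled H9 EB was examined first, with 4 genes that were dim in undifferentiated H9 and bright on all 4 H1 arrays. CRYZ, a quinone oxidoreductase, read 50.1 and 30.1 in undifferentiated H9, 1406 and 1384 in the EB group, and 4470 and 4198 in H1 EB. TYW3, its neighbour in the genome and an enzyme of tRNA modification, read 14.98 and 40.3, then 290 and 329, against 1157 and 1131 in H1 EB. Both genes thus left the dim range on the arrays labelled H9 EB without reaching the H1 level. TRIM61 moved from 20.3 and 32.7 to 156 and 171, with 606 and 540 in H1 EB. ZNF680, a zinc finger gene, moved from 48.1 and 45.7 to 301 and 197, with 1134 and 1153 in H1 EB. The probe sets of TRIM61 and ZNF680 may also hybridise to related transcripts. In H1 itself none of the 4 was called different between the states (log2 changes of 0.17 for CRYZ, -0.20 for TYW3, -0.07 for TRIM61 and -0.37 for ZNF680, adjusted p = 0.30, 0.47, 0.76 and 0.071 in limma). Expressed as a share, the increase from undifferentiated H9 was 31.6% of the distance to the H1 EB level for CRYZ, 25.2% for TYW3, 25.1% for TRIM61 and 18.4% for ZNF680, with a median of 25.1% over these 4 genes at 3 loci. At these loci neither array labelled H9 EB was at the level of the undifferentiated arrays of its line. In the other direction, TCEAL2, chosen after its values were seen, read 1564 and 1447 in undifferentiated H9, 420 and 362 in the EB group and 14.0 and 12.5 in H1 EB, which left 26% of the undifferentiated level. This percentage is another measure than the check share. TCEAL2 was the brightest of 93 genes above the median on both undifferentiated H9 arrays and dim on all 4 H1 arrays, many of them near the median. They kept from 12.1% (NETO1-DT) to 139% (LINC01521) of the undifferentiated level, with ZNF717 at 58.3% and NLRP2B at 42.5%. In view of the check genes, the share of the H1 EB level is given for genes dim on both undifferentiated H9 arrays whose array values are printed below. Calls between the states, over all tested genes and by list, were repeated with H1 EB signal subtracted from the arrays labelled H9 EB. So were calls of the difference between the lines over all tested genes. The median or the highest check share was subtracted. Other counts were not repeated in this way. Values below 0 after subtraction were set to 0. The part that signal of the H1 line has in the results was not tested otherwise.

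**Figure D1:**
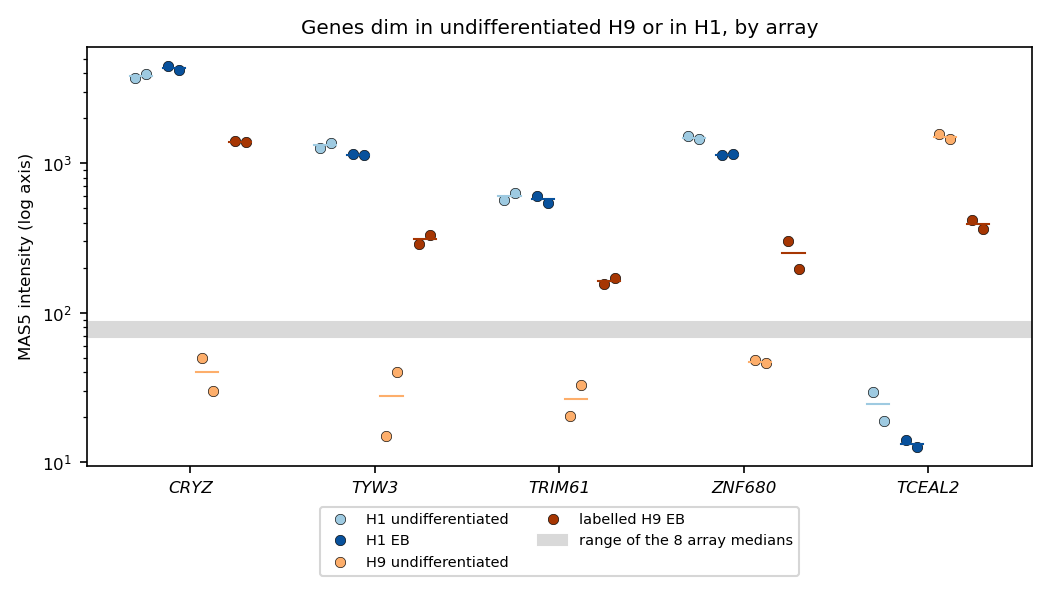
MAS5 intensity (log axis) of 4 check genes and TCEAL2 on each of the 8 arrays; points are arrays, short lines group means, and the grey band spans the array medians of 68.7 to 86.0. CRYZ, TYW3, TRIM61 and ZNF680 sit below the band in undifferentiated H9, and in the EB group of that line between the band and the H1 arrays, while TCEAL2 falls from 1564 and 1447 to 420 and 362.

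Of 14056 genes tested, 8515 (60.6%) were called different between the states at an adjusted p under 0.05, 4441 (31.6%) higher and 4074 (29%) lower in EB (limma with Benjamini-Hochberg adjustment). The median log2 change over the tested genes was 0.01. With each array centred on its median the same genes shifted by -0.26, and the split became 2810 higher and 6483 lower, so small changes are read relative to that shift. A change of at least 1 on the log2 scale was called upward for 1575 genes (11.2%) and downward for 605 (4.3%). The 4 arrays did not overlap between the states, with EB higher, for 41.4% of tested genes and, with EB lower, for 39.1%. These large changes were mostly shared with H1, which has no array in common with this comparison: 1369 of the 1575 genes were also called higher in H1 EB and 9 lower, and 494 of the 605 were also called lower and 4 higher. In H1, 29.6% of all tested genes were called higher and 28.1% lower, and 10.1% and 4.17% past the same size of change. With H1 EB signal subtracted at the highest check share, 1515 of the 1575 and 595 of the 605 were called in the same direction in H9. The overlap with H1 was not recounted after subtraction. In view of the check genes it cannot be read as an independent repeat.

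The 15 largest rises among genes above the array median on all 4 H9 arrays were led by secreted proteins and surface molecules. APOA1, the main protein of high-density lipoprotein, read 146 and 199 in undifferentiated H9 and 11440 and 10880 in EB, a log2 change of 5.90 ± 0.27 (SE, n = 2 and 2 arrays; adjusted p = 8.6e-07 in limma). APOA2, its partner in the same particle, rose from 239 and 203 to 13210 and 12750. DKK1, a secreted WNT antagonist, rose from 331 and 238 to 16420 and 15640 (log2 change 5.76 ± 0.13, adjusted p = 5.1e-10 in limma). In these 3 genes every EB array lay far above both undifferentiated arrays. CDH6, a cadherin of neural crest and kidney, rose from 106 and 127 to 7178 and 6767. ZIC1, a zinc finger factor of the dorsal neural tube, rose from 111 and 73.8 to 5155 and 4767, and the collagen gene COL3A1 from 185 and 186 to 8684 and 9096. AFP, FLRT3, TNFRSF19, TTR, HAS2, RSPO3, TMEM132C, POSTN and CST1 completed the 15, with log2 changes from 5.08 for AFP to 4.56 for CST1. FLRT3 is a membrane protein of FGF signalling and cell adhesion, HAS2 makes hyaluronan, and RSPO3 amplifies WNT signalling.

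Among genes dim in undifferentiated H9, fold changes are lower bounds against the array median. The highest bounds were those of GASK1B, a Golgi-associated protein, at least 66.1-fold, and of the nuclear receptor NR2F1 (COUP-TFI), at least 65.7-fold. NR2F1 read 67.3 and 60.8 in undifferentiated H9, 4356 and 4807 in EB and 2531 and 2387 in H1 EB, so it stood at 189% of the distance to the H1 EB level. TFAP2A (at least 34.0-fold), LINC00261 (29.2), PRSS2 (26.0), NNAT (25.8), TBX3 (25.7), FGB (23.8), LGR5 (22.9), ALDH1A1 (20.5) and DEFA6 (20.2) followed, with CRYZ, the check gene, at 20.03. LINC00261, a noncoding RNA transcribed beside FOXA2, read 10.2 and 7.30 in undifferentiated H9 and 1935 and 2142 in EB. Its share of the H1 EB level was 96.4%, and FGB stood at 32.9%. Apart from NR2F1, FGB and CRYZ, the shares of this group ranged from 60.3% for NNAT to 167% for DEFA6.

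**Figure D2:**
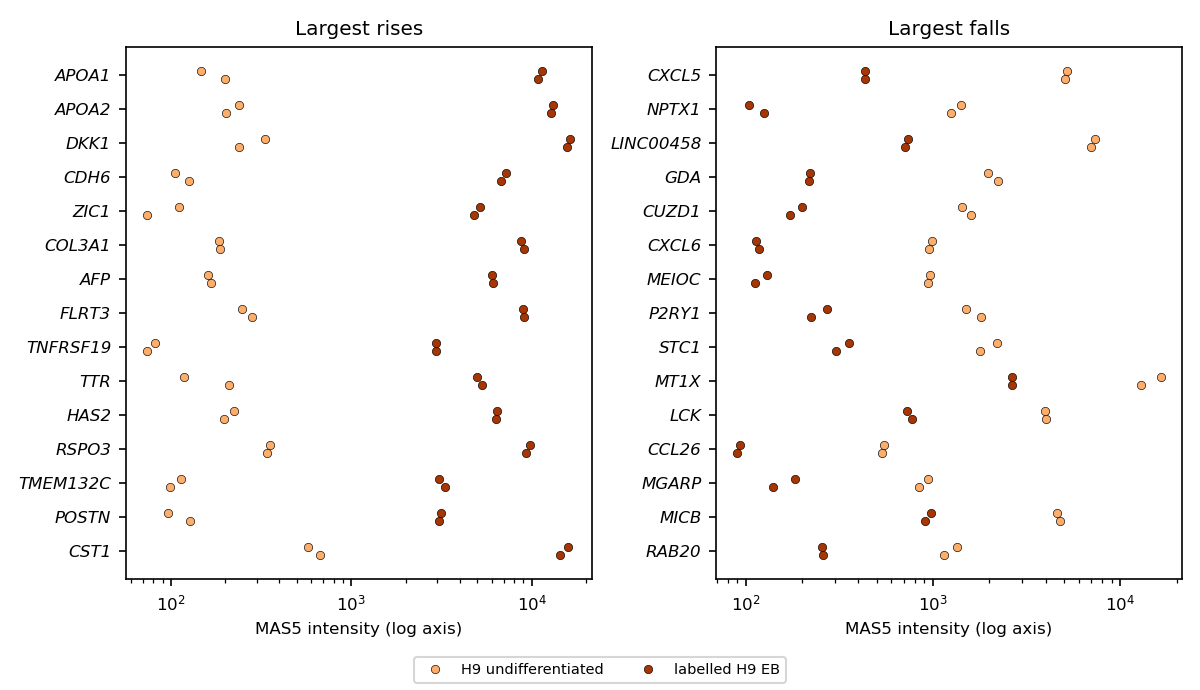
MAS5 intensity (log axis) on each of the 4 H9 arrays for the 15 largest rises and the 15 largest falls among genes above the array median on all of them; each point is 1 array. The 2 states do not overlap for any of the 30 genes, and the arrays of a state lie close together.

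The largest falls were led by CXCL5, NPTX1 and LINC00458. CXCL5, a chemokine, read 5177 and 5074 in undifferentiated H9 and 434 and 434 in EB, a log2 change of -3.51 ± 0.07 (SE, n = 2 and 2; adjusted p = 4.8e-11 in limma). The related CXCL6 fell from 993 and 950 to 114 and 118. NPTX1, a secreted pentraxin, fell from 1410 and 1247 to 104 and 126, and the noncoding RNA LINC00458, a transcript of pluripotent cells, from 7358 and 6975 to 737 and 710. The states did not overlap in any of these 4 genes. GDA (guanine deaminase), CUZD1, MEIOC, the purine receptor P2RY1, STC1, the metallothionein MT1X, the kinase LCK, CCL26, MGARP, MICB and RAB20 made up the 15, down to a log2 change of -2.20 for RAB20. Of genes that became dim in EB, the phospholipase PLA2G4C had the highest bound: it read 584 and 555 in undifferentiated H9 and 52.0 and 55.3 in EB, at least 6.69-fold lower. HMX2 fell at least 6.06-fold, and NRK, PSMB9, KLK10, C1orf94, MYMX and GRIA4 at least 4.31-fold to 3.18-fold.

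The core pluripotency genes fell unevenly. Of 27 tested, 17 were called lower and 3 higher (OTX2, GDF3 and EPCAM), with a median log2 change of -0.41 against -0.70 in H1. Over all tested genes 29% were lower and 31.6% higher. The rises of GDF3 (0.28) and EPCAM (0.26) were small. With arrays centred on their medians GDF3 read -0.0009 and EPCAM -0.034, and both calls were lost without certain single H9 arrays (adjusted p up to 0.24 for GDF3 and 0.12 for EPCAM in limma). In a bulk sample, fewer cells that express a gene and less RNA per cell cannot be told apart. NANOG, a homeodomain factor of self-renewal, fell from 8325 and 8031 to 4703 and 4534 (log2 change -0.82 ± 0.06, adjusted p = 3.5e-07 in limma), and ZFP42 from 9815 and 11040 to 4248 and 4402. The surface antigen THY1 fell furthest of the list, from 6499 and 6233 to 1490 and 1501. SOX2, which also marks neural progenitors, read 18390 and 16550 before and 17930 and 16860 after, a log2 change of -0.01 ± 0.06 (adjusted p = 0.95). DNMT3B, a DNA methyltransferase (0.03, adjusted p = 0.59), and SALL4 (-0.10, adjusted p = 0.24) were not called either. With arrays centred DNMT3B was called lower (-0.26, adjusted p = 0.0017 in limma), and with quantile normalization SOX2 was called higher (0.15, adjusted p = 0.013 in limma). Whether these 2 genes were called thus depended on the normalization. SOX2, DNMT3B and SALL4 were called lower in H1 (log2 changes of -0.41, -0.67 and -1.15), and the difference between the lines passed the test for each (adjusted p = 0.0065, 0.00011 and 9.5e-05 in limma). For SOX2 that difference was 0.41 here and -0.062 with all probe sets of the gene averaged. Of the RNA-binding proteins LIN28A, LIN28B, L1TD1 and TRIM71, all 4 were called lower with log2 changes from -0.27 for LIN28B to -0.54 for L1TD1. Of 20 further genes enriched in stem cells, 17 were called lower and the 2 secreted products NTS and SFRP2 higher, with a median of -1.43; FGF2, the growth factor missing from the EB medium, fell from 2275 and 2451 to 985 and 648.

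Naive pluripotency genes showed no common direction: of 9 tested, 4 were called higher and 1 lower, beside 31.6% and 29% of all tested genes. TBX3 read 55.1 and 66.1 in undifferentiated H9 and 1746 and 1829 in EB, a share of 62.9%. FGF4, a ligand of early pluripotent cells, rose from 148 and 130 to 495 and 580, while the nuclear receptor NR5A2 fell from 244 and 210 to 132 and 104.

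BMP pathway genes were called higher almost throughout: 22 of 23 tested, with a median log2 change of 2.29, against 31.6% of all tested genes. Among ligands BMP2 rose from 338 and 387 to 2814 and 2661, BMP4 from 18.3 and 106 to 512 and 400, and BMP5, dim before, reached 745 and 725 (a share of 111%). The receptors BMPR1B, BMPR2 and ACVR1 were called higher, and of the mediators SMAD5 and SMAD9 but not SMAD1 (log2 change -0.16, adjusted p = 0.078 in limma). All 6 target genes rose, from 0.88 for ID3 to 4.32 for MSX1, a homeobox factor that read 115 and 110 before and 2536 and 2558 after. The secreted and intracellular inhibitors rose beside the ligands, with GREM1 from 216 and 242 to 5110 and 5053, NOG from 55.7 and 85.0 to 966 and 1229, and BAMBI from 1752 and 1701 to 8622 and 8428. With H1 EB signal subtracted at the highest share, 22 were called higher and 1 lower, and the median was 2.20.

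WNT pathway genes were called higher for 23 of 34 tested and lower for 4, with a median of 0.94, where 31.6% of all tested genes were higher and 29% lower. All 5 target genes rose. AXIN2, a feedback inhibitor and general reporter of the pathway, rose from 973 and 975 to 2776 and 2766, and SP5, a transcription factor induced by WNT, from 103 and 99.4 to 923 and 994 (log2 change 3.05 ± 0.13, adjusted p = 9.1e-09 in limma). AXIN2 rose more in H9 than in H1 (1.49 against 0.62, adjusted p of the difference = 0.00012). The promoter of SP5 is shown because it carries 3 matches to the core of the TCF/LEF binding motif, CTTTGA on either strand, in 200 bases. It is given 5' to 3' on the gene's strand, from RefSeq on GRCh38.p14, ending at the base before the annotated start, with the matches in capitals.
SP5 (chr2:170715137-170715336, plus strand): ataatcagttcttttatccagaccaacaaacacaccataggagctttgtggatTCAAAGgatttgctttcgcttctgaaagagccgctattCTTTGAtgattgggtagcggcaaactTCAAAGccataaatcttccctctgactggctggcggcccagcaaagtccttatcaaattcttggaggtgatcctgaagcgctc
Within 250 bases before the start, the same 6 letters occurred in 7.89% of the promoters of tested genes and in 2 of the 22 WNT pathway promoters that the table held (9.09%). They also occurred in 6 of the 16 promoters held for plasma proteins of yolk sac and liver (37.5%). LEF1, the factor that binds such motifs, rose from 186 and 146 to 2233 and 2396, whereas the repressor TCF7L1 fell from 3239 and 3642 to 1712 and 1824. Of 4 ligands tested 3 were called higher, and of 12 receptors 8 were called higher and 1 lower. WNT5A rose from 183 and 190 to 1461 and 1660, FZD10 from 117 and 131 to 1956 and 1908, and LGR5, dim before, to 1586 and 1607 (a share of 79.3%). Of 9 inhibitors tested 5 were called higher and 1 lower. DKK1 and FRZB were among those that rose, FRZB from 287 and 228 to 4741 and 4830.

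NODAL, the TGF-beta family ligand of mesoderm and endoderm induction, rose in the arrays labelled H9 EB and fell in H1. It read 386 and 501 in undifferentiated H9 and 909 and 917 in EB, a log2 change of 1.03 ± 0.12, against -0.78 in H1 (adjusted p of the difference = 7.3e-05 in limma). All 4 ligands of this list (NODAL, INHBA, INHBB and GDF3) were called higher, with the exceptions given above for GDF3. INHBB (1.09) was not called without the first undifferentiated array or the second array labelled H9 EB (adjusted p = 0.066 and 0.053 in limma). Of the pathway as a whole 10 of 16 were higher and 3 lower (FOXH1, LEFTY1 and TGIF1, the last at 0.11 with its probe sets averaged). These counts stand beside 31.6% higher and 29% lower of all tested genes. FST, a secreted antagonist of activin, rose from 1229 and 1333 to 13500 and 13410. Of 8 primitive streak genes tested, 6 were called higher. The streak factor EOMES rose from 254 and 248 to 1161 and 1029, while TBXT, the defining streak factor brachyury, was not called (log2 change 0.30, adjusted p = 0.25), and MIXL1, MESP1 and GSC were too dim to test.

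Of the FGF list, 4 of 6 ligands were called higher and 2 lower (FGF2 and FGF13), all 4 receptors higher and 5 of 6 ERK targets lower, among them ETV4 (386 and 450 to 134 and 102) and MYC (2260 and 2296 to 816 and 899). The shares over all tested genes were 31.6% higher and 29% lower. FGF8, dim in undifferentiated H9 at 3.44 and 5.03, reached 177 and 172 (a share of 153%), a change larger than in H1 (3.24 against 0.62, adjusted p of the difference = 0.0014 in limma). Feedback inhibitors divided, with SPRY4, DUSP5, DUSP6 and SPRED1 lower and SPRY2, SPRED2, DUSP4 and IL17RD higher. SPRED2 read -0.20 with its probe sets averaged, and SPRED1 was not called without the second undifferentiated array or the first array labelled H9 EB (adjusted p = 0.059 and 0.069 in limma). In the retinoid and HOX list 14 of 18 were called higher. ALDH1A1, which makes retinoic acid, rose from 51.1 and 57.7 to 1421 and 1432 (a share of 70.1%), and the TALE homeobox factor MEIS2 from 122 and 109 to 1684 and 1659. CYP26A1, which degrades retinoic acid, fell from 1510 and 1235 to 926 and 896 but rose in H1 (-0.58 against 1.16, adjusted p of the difference = 0.00012 in limma).

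Most endoderm genes were called higher. Of 14 endoderm genes tested, 11 were called higher and FOXA3 lower, beside 31.6% and 29% of all tested genes. The median was 2.27 against 2.93 in H1. The difference between the lines was called for 2 of the 14, EOMES and SOX7, where it was called for 22.7% of all tested genes. Of the 10 transcription factors in the list 7 were higher, and HHEX (0.39) and SOX7 (-0.04) were not called. SOX17 rose from 104 and 74.4 to 1060 and 1059 (log2 change 3.37 ± 0.15, adjusted p = 1.2e-08 in limma), FOXA2 from 66.7 and 92.7 to 1074 and 1120, and GATA6 from 79.8 and 118 to 1992 and 2062. GATA4, dim before, reached 354 and 344, a share of 65.0%. The chemokine receptor CXCR4, a surface marker of definitive endoderm, rose from 334 and 286 to 5475 and 5070. Shares of the H1 EB level ran from 40.4% for FOXA1 to 98.5% for CXCR4 over the 9 risen members whose H1 EB level was at least 4 times that of undifferentiated H9, each above the highest check share of 31.6%. With subtraction at the highest share 10 of the 14 were called higher and 2 lower, with a median of 2.07.

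The plasma proteins of yolk sac and liver rose with them but by very different shares of the H1 EB level. Of 21 tested, 19 were called higher, where 31.6% of all tested genes were. The median was 3.48 against 5.71 in H1, and 18 of the 21 differed between the lines, where 22.7% of all tested genes did. AFP, the fetal carrier alpha-fetoprotein, read 161 and 167 in undifferentiated H9, 6040 and 6117 in EB and 14680 and 14450 in H1 EB. TTR, the thyroxine carrier, rose from 119 and 210 to 5000 and 5292, and APOB, the scaffold protein of low-density lipoprotein, from 53.7 and 94.2 to 3336 and 3439. APOA1 stood at 79.6% of the distance to the H1 EB level, APOA2 at 75.2%, APOB at 66.1%, TTR at 48.1% and AFP at 41.1%, all above the check genes. The 3 fibrinogen chains were close to the highest check share, FGA at 33.4%, FGB at 32.9% and FGG at 35.4%. FGB, dim before at 17.5 and 24.6, read 1675 and 1641 in EB and 5087 and 4905 in H1 EB.

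Below the highest check share lay RBP4, the retinol carrier, at 26.5%, APOA4 at 19.6%, the protease inhibitor SERPINA1 at 18.4%, APOC3 at 14.9%, transferrin (TF) at 12.8% and the fetal glycoprotein AHSG at 9.37%. SERPINA1 read 22.2 and 23.0 in undifferentiated H9, 418 and 415 in EB and a mean of 2161 in H1 EB. AHSG read 50.6 and 50.1, then 220 and 233, against a mean of 1933 in H1 EB. AHSG, TF and APOC3 lay below all 4 check genes, and SERPINA1 lay level with ZNF680, the lowest of them. SERPINC1, an inhibitor of clotting, read 3.41 and 3.05 and then 57.95 and 34.95, still dim, at 24.1%. Check genes left out, 423 risen genes were dim in undifferentiated H9 and above the median on both arrays labelled H9 EB and both H1 EB arrays. Their median share was 96.5%. A gene with a low share and a low H1 EB level could not pass the filter on the arrays labelled H9 EB. The median share and the following counts are therefore partly set by that filter. Of the 423, 413 lay above 31.6% and 10 at or below it. RBP4, APOA4, SERPINA1, APOC3, TF and AHSG were 6 of these 10. The remaining 4 were FABP1, the liver fatty acid binding protein (24.4%), the collagenase MMP1 (24.7%), the chemokine CXCL11 (24.8%) and the crosslinking enzyme LOX (27.5%), named after their values were seen. CXCL11 was bright in both states of H1, with means of 441 and 432 (log2 change -0.01, adjusted p = 0.97 in limma). After subtraction at the median share 12 of the 21 plasma protein genes were called higher and 5 lower, with a median of 0.64. The 5 lower, AHSG, ALB, APOA4, APOC3 and SERPINA1, had been set to 0 on both arrays labelled H9 EB. Their fall was fixed by that floor and was not measured. At the highest share 10 were higher and 6 lower, now with RBP4, and the median was 0.47. APOA1, APOA2, APOB, AFP and TTR were called higher under both, with log2 changes at the highest share of 5.72, 5.55, 4.90, 3.60 and 3.94.

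**Figure D3:**
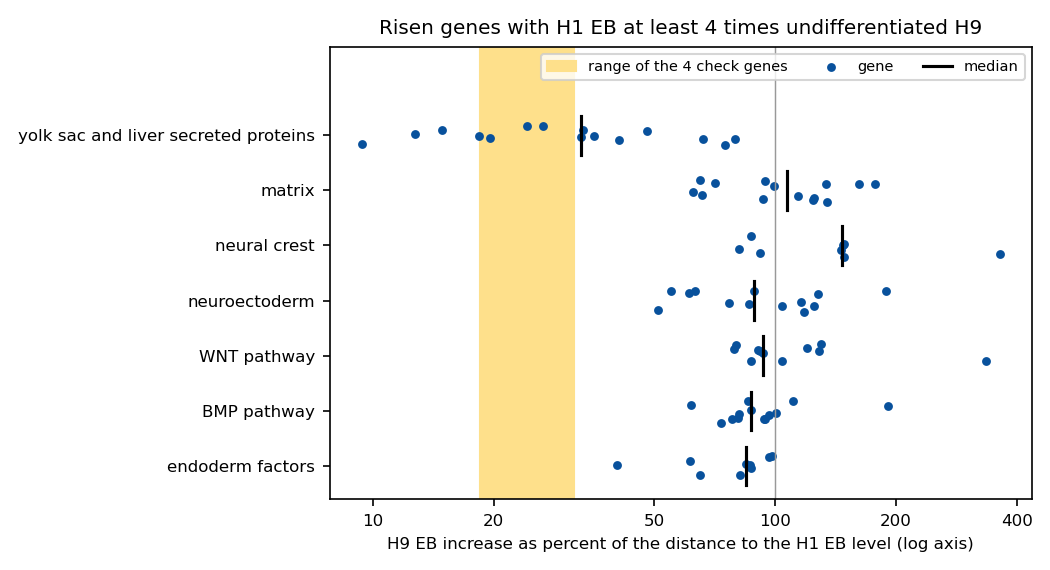
Increase of each risen gene from undifferentiated H9 to the arrays labelled H9 EB, as percent of the distance to the H1 EB level (log axis), for genes with H1 EB at least 4 times undifferentiated H9; points are genes, black bars medians, and the yellow band spans the 4 check genes (18.4% to 31.6%). Plasma protein genes reach into and below the band, with a median of 32.9%, whereas neural crest genes have a median of 147% and no gene of the other groups enters the band.

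Promoters of 3 plasma protein genes that rose to different shares (APOA2 75.2%, AFP 41.1%, FGB 32.9%) are shown because this list had the highest median change. Each is the 200 bases before the annotated start, 5' to 3' on the gene's strand, from RefSeq on GRCh38.p14, with matches to GTTAAT (half-site of the HNF1 motif) or TGTTTAC (forkhead motif, bound by FOXA factors) on either strand in capitals. The 3 genes were picked by name, and each promoter holds a match, which most promoters of the list do not.
AFP (chr4:73436021-73436220, plus strand): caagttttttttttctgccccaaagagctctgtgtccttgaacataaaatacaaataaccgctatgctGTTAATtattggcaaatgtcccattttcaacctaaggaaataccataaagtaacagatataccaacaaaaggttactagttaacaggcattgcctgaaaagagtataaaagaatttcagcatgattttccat
FGB (chr4:154562780-154562979, plus strand): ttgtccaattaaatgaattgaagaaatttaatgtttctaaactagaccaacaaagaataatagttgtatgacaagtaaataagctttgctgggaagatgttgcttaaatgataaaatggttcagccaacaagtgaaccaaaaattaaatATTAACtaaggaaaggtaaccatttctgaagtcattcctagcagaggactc
APOA2 (chr1:161223629-161223828, minus strand): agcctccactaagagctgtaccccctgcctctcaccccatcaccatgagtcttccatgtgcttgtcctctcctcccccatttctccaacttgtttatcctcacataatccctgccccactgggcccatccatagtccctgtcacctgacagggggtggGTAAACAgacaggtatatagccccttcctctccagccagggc
The HNF1 half-site occurred in AFP and FGB and the forkhead motif in APOA2. Within 250 bases before the start, GTTAAT was found in 4 of the 16 plasma protein promoters that the table held (25%) and in 3.46% of the promoters of tested genes, and TGTTTAC in 1 of 16 (6.25%) and in 1.87%.

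Neural crest genes showed the opposite relation to H1. Of 13 tested, 11 were called higher and ETS1 and EDNRB lower, where 31.6% of all tested genes were higher and 29% lower. The median was 2.97 against 1.67 in H1. A difference between the lines was called for 9, beside 22.7% of all tested genes. With probe sets averaged ETS1 read 0.11 and EDNRB 0.28, and ETS1 was not called in 3 of the fits that left out 1 H9 array (adjusted p 0.068 to 0.15 in limma). TFAP2A, a factor of the neural plate border, read 54.6 and 60.3 in undifferentiated H9 and 2336 and 2396 in EB, against a mean of 1613 in H1 EB (a share of 148%). TFAP2B rose from 36.0 and 23.0 to 1308 and 1230, a log2 change of 4.83 ± 0.16 against 1.52 in H1 (adjusted p of the difference = 1.6e-05 in limma), and stood at 363% of the distance to the H1 EB level. PAX3 rose from 132 and 121 to 2639 and 2573, SNAI2 from 145 and 113 to 1083 and 1134, and TWIST1, dim before, to 898 and 977 (a share of 149%). SOX10, a factor of migrating crest cells, reached 448 and 387 from 154 and 127. The crest receptor NGFR was too dim to test. Over the 8 risen members with H1 EB at least 4 times undifferentiated H9, the share ran from 81.6% for MSX1 to 363%, and 11 of the 13 were called higher after subtraction at the highest share, with a median of 3.14.

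Neuroectoderm genes were called higher for 19 of 25 and lower for SOX3, ZIC2, HESX1 and POU3F1, with a median of 1.63. Among all tested genes 31.6% were higher and 29% lower. HESX1 was not called without the second undifferentiated array or the second array labelled H9 EB (adjusted p = 0.050 and 0.065 in limma). Of 16 transcription factors in the list 11 were higher and 4 lower, and 12 differed between the lines, where 22.7% of all tested genes did. PAX6, SIX3 and LHX2 rose less than in H1, PAX6 from 150 and 137 to 1719 and 2010 (3.56 against 5.51, adjusted p of the difference = 0.00059 in limma), SIX3 from 157 and 143 to 648 and 658 (2.01 against 4.04, 0.00017), and LHX2 from 326 and 290 to 1973 and 1997 (2.63 against 4.56, 0.0032). ZIC1, NR2F1 and POU3F2 rose more than in H1 on the log2 scale. ZIC1 started from a mean of 92.6 in H9 against 518 in H1, and reached 4961 against 5756 in EB. SOX1, which marks the neural plate, rose from 119 and 108 to 971 and 883, without a called difference (adjusted p = 0.50). The neuronal microtubule protein MAP2 rose from 300 and 344 to 2962 and 3017 and the adhesion molecule CDH2 from 3013 and 2820 to 12420 and 12370.

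Matrix genes were called higher for 25 of 26 tested, beside 31.6% of all tested genes, with a median of 2.21 against 1.49 in H1. LUM, a small leucine-rich proteoglycan of collagen fibrils, read 88.3 and 70.2 in undifferentiated H9 and 6043 and 4770 in EB (log2 change 5.83 ± 0.14, adjusted p = 5.2e-10 in limma). FN1, fibronectin, rose from 3241 and 4497 to 31450 and 30110, and COL1A2 from 3190 and 3292 to 15530 and 14530. COL9A3 was not called. Transcription factors of the epithelial to mesenchymal switch rose with the matrix: ZEB1 from 92.8 and 128 to 1469 and 1417, ZEB2, dim before, to 714 and 700 (a share of 90.3%), and PRRX1 from 60.6 and 9.45 to 1198 and 1139 (a share of 144%), while TWIST2 fell from 395 and 359 to 89.5 and 122 and SNAI1 was too dim to test. The epithelial splicing factor ESRP1 fell from 4586 and 4579 to 2425 and 2414, and E-cadherin (CDH1) read 10300 and 10320 before and 10650 and 10270 after (adjusted p = 0.74). With its probe sets averaged CDH1 read -0.37.

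Mesoderm and amnion genes gave mixed counts, to be read beside the 31.6% of all tested genes called higher and the 29% called lower. Of 12 mesoderm and cardiovascular genes, 6 were higher and 2 lower: PDGFRA rose from 106 and 134 to 2116 and 2301 and ISL1 from 87.8 and 52.8 to 609 and 712, whereas the VEGF receptors KDR and FLT1 fell. Of 12 amnion and trophoblast genes, 7 were higher and 2 lower, with GATA3 from 148 and 108 to 1673 and 1789, while CDX2, GCM1 and ELF5 were too dim to test and the amnion product GABRP fell from 341 and 375 to 155 and 162. Markers of other cell types gave mixed results. PTPRC and SPI1 for blood, CDH5 for endothelium, MYOD1 and MYOG for muscle and FAP for fibroblasts did not pass the filter. Of 8 blood markers listed 3 could be tested and 2 were called higher, HBE1 (133 and 42.2 in EB) and LYZ (37.2 and 58.0), and neither was called after subtraction at the median share. Their shares of the H1 EB level were 38.3% and 30.1%. HBE1 was not called without the first array labelled H9 EB (adjusted p = 0.066 in limma). Of 4 endothelial markers tested 2 were higher, VWF (91.4 and 85.8 to 254 and 265) and ERG (0.95), TEK was lower and PECAM1 was not called (-0.16). With probe sets averaged PECAM1 was called higher (1.02, adjusted p = 0.0052 in limma), and ERG was not called without the first undifferentiated array or the first array labelled H9 EB (adjusted p = 0.065 and 0.090 in limma). Of 4 fibroblast markers 3 were higher, the matrix genes LUM, DCN and COL1A1, with a median of 2.04 over the 4, and THY1 was lower. Of 2 muscle markers tested MYH2 was lower and DES not called. The part of such cells in the results was not tested.

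**Figure D4:**
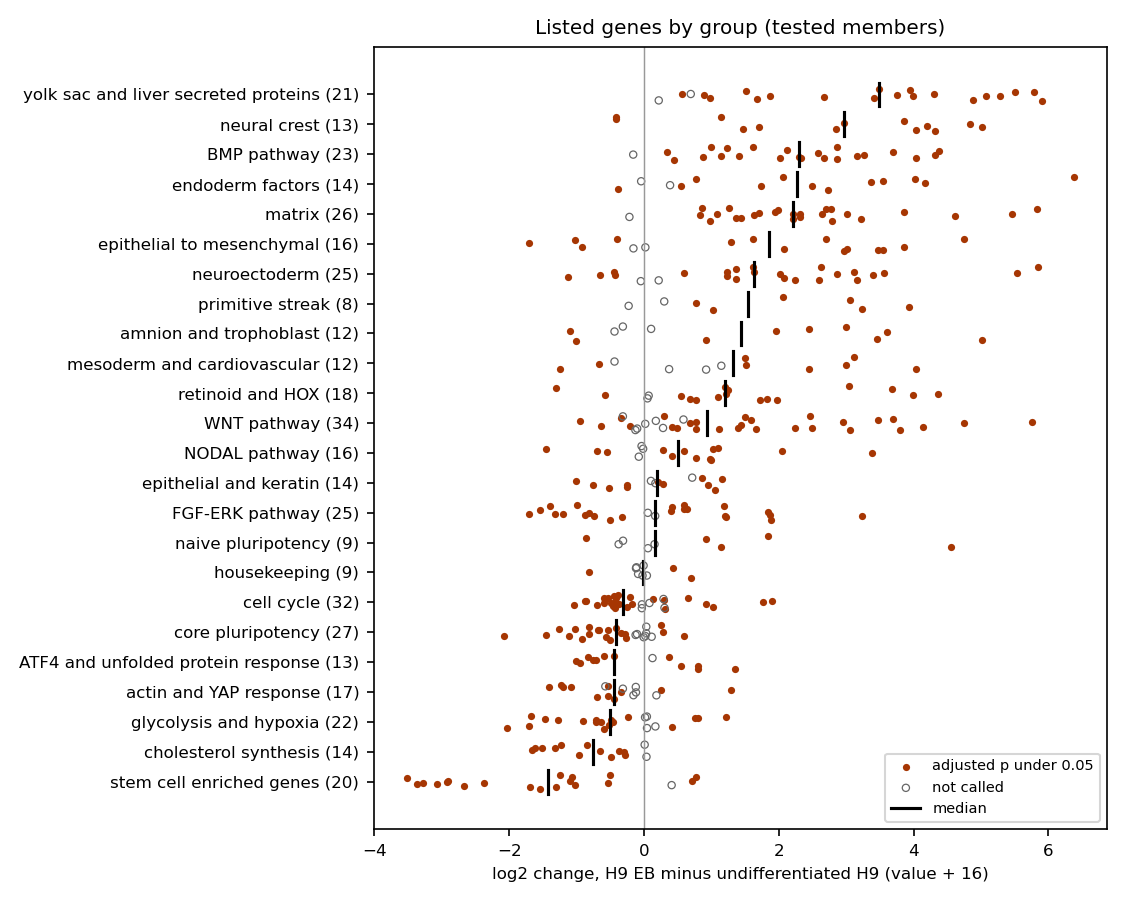
log2 change (H9 EB minus undifferentiated H9, on log2 of intensity + 16) of the tested genes of each list, with the number tested in brackets; filled points were called at an adjusted p under 0.05, open points were not, and black bars are medians. Plasma protein, neural crest and BMP lists have the highest medians (3.48, 2.97 and 2.29), and cholesterol synthesis and stem cell enriched genes the lowest (-0.75 and -1.43).

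Of 32 cell cycle genes 19 were called lower and 8 higher, where 29% of all tested genes were lower and 31.6% higher. All 11 mitotic genes were called lower, from -0.38 for CCNA2 to -1.03 for AURKA, a mitotic kinase that fell from 6833 and 6050 to 3137 and 3138. In 7 of the 11 the fall was larger than in H1, where the H9 change was called more negative for 11.2% of all tested genes. CDK6 rose from 460 and 526 to 1861 and 1909. Cholesterol synthesis genes were called lower for 12 of 14, with HMGCS1, an early enzyme of the pathway, from 10240 and 10570 to 3704 and 3593 and INSIG1 from 5897 and 5745 to 1892 and 1762. In both the fall was larger than in H1 (-1.51 against -0.75 for HMGCS1 and -1.66 against -0.57 for INSIG1, adjusted p of the difference = 7.3e-05 and 2.7e-05 in limma). Of 15 glycolysis genes, 12 were lower, among them HK2 (5573 and 5129 to 1590 and 1723), while the glucose transporters SLC2A1 and SLC2A3 rose. Of 8 ATF4 target genes, 7 were lower, ASNS from 7738 and 8015 to 4118 and 4044, and of 5 chaperone genes 4 were higher. Of 6 YAP targets tested 3 were called lower and 3 were not called. Among the lower, CCN1 and CCN2 fell from 3506 and 3835 to 1381 and 1359 and from 4299 and 4581 to 1895 and 1927. Of 11 actin cytoskeleton genes tested 6 were called lower and 2 higher. The smooth muscle actin ACTA2, 1 of the 2, rose from 434 and 384 to 1005 and 1036 but fell in H1 (1.29 against -0.38, adjusted p of the difference = 2.6e-05 in limma). Of 9 housekeeping genes 6 were not called in limma, and HPRT1 fell from 7013 and 6331 to 3891 and 3690.

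The response of the arrays labelled H9 EB differed from that of H1 for 3195 of the 14056 genes (22.7%), with the H9 change more positive for 1615 (11.5%) and more negative for 1580 (11.2%). Without the first H1 EB array the number was 2031 and without the first array labelled H9 EB 2072. With H1 EB signal subtracted it was 3578 at the median and 3731 at the highest check share. The changes in the 2 lines correlated at r = 0.819 across genes (genes are not replicates), with 5920 genes called the same way in both and 281 opposite ways. The most positive differences among genes above the array median on all 8 arrays were of CDH6 (2.99 log2 units), COL3A1 (2.60), QPCT (2.45), COL12A1 (2.43), SEMA3C (2.31), IGFBP7 (2.29), DACT1 (2.15) and ZIC1 (2.11). Each of these genes had a lower undifferentiated mean in H9 than in H1. The EB mean was lower in H9 for COL3A1, QPCT and ZIC1 and higher for the others. COL3A1 had undifferentiated means of 185.5 in H9 against 1885 in H1, and EB means of 8890 against 13540. For QPCT these were 99.4 against 932 and 1132 against 1714. In CDH6 the undifferentiated arrays read 106 and 127 in H9 against 575 and 549 in H1. Its EB arrays read 7178 and 6767 against 3782 and 3886. DACT1, a modulator of WNT signalling, rose from 771 and 875 to 1632 and 1688 in H9 and fell from 3047 and 2808 to 1380 and 1248 in H1. The most negative were of DLK1 (-2.52), HINT3 (-2.35), GDA (-2.16), LHX2 (-1.93), PTP4A1 (-1.89), CFAP96 (-1.88), GATM (-1.88) and MEIOC (-1.79, or 0.020 with its probe sets averaged). DLK1, an imprinted Notch-family ligand, was already bright in undifferentiated H9 at 4652 and 3865, against 688 and 577 in H1, and reached 26400 and 25110 in EB. GATM, an enzyme of creatine synthesis, read 2268 and 2079 before and 2281 and 2382 after in H9 (log2 change 0.10, adjusted p = 0.27) and rose from 959 and 922 to 3514 and 3996 in H1.

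**Figure D5:**
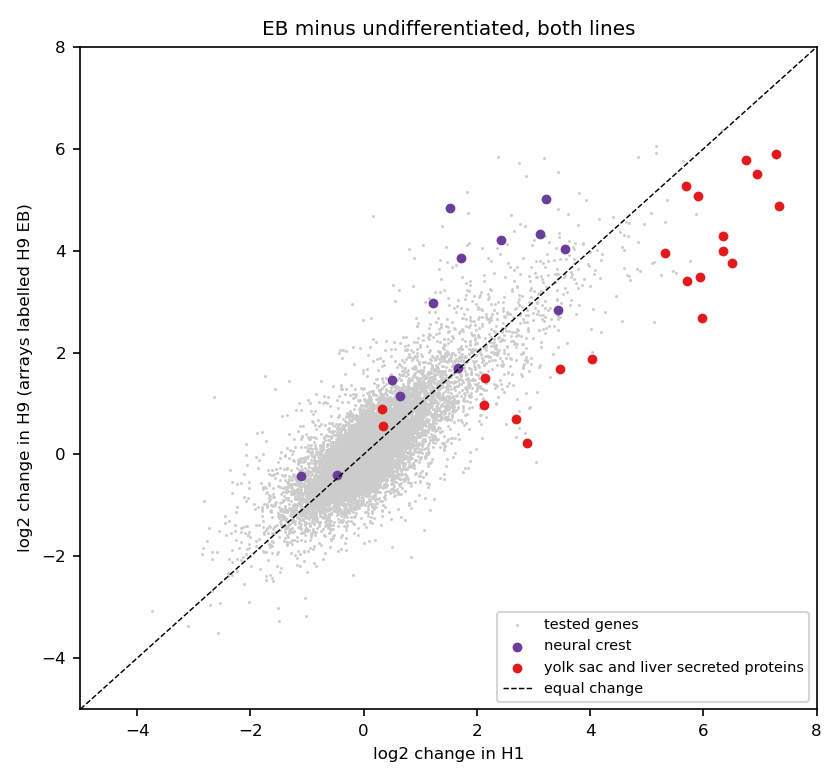
log2 change from undifferentiated cells to EB in H9 (y axis) against H1 (x axis); grey points are tested genes, purple points neural crest genes, red points plasma protein genes of yolk sac and liver, and the dashed line marks equal change. Most plasma protein genes lie below the line (median 3.48 in H9 and 5.71 in H1) and most neural crest genes above it (2.97 and 1.67).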

How the data were processed

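The 8 arrays of the series comprised 2 for each state of H9 and H1. The values are probe set intensities on a linear scale, deposited by the authors as 1 value per array. The submitters' processing notes name MAS5, whose version is not given in the sources used here. Of 54675 probe sets, 62 were controls, 41091 had 1 gene symbol, 1801 several and 11721 none in the platform annotation. Each gene was read from its single-symbol probe set with the highest mean, as log2(intensity + 16), a scale that understates the change of low genes. Genes above the median of their own array on at least 2 of the 8 arrays were tested with limma 3.58.1 in R 4.3.3, as 4 group means with 4 residual degrees of freedom, eBayes with trend and robust, and Benjamini-Hochberg adjustment. A bound ("at least N-fold") takes the array median as the level of a dim gene. The number of arrays limits the precision.

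Named genes were the 15 largest rises and 15 largest falls measured in both states, the 12 rises and 8 falls with the highest bounds, the 8 largest differences from H1 in each direction, the check genes and members of the gene lists. The members and lists were chosen with earlier results of these data known. Some named genes (APOA1, PRSS2, CXCL5, STC1, MT1X, ZFP42, ZNF680, TRIM61 and GRIA4) have probe sets that may also hybridise to related transcripts. Listed genes with no single-symbol probe set were not analysed here, and 15 tested genes are not reported here. The replicate numbers did not pair the arrays: same-numbered arrays deviated from their group means with correlations of -0.05 to 0.05. Alternatives covered normalization, the added value, the filter, averaged probe sets, the variance model, a replicate block, subtraction of H1 EB signal and leaving out each array; those for the check share and for genes with low shares were chosen after seeing the data. Promoter sequences are from RefSeq on GRCh38.p14.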

Additional observations from a re-analysis of the deposited data

Results flagged for a closer look

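The change from undifferentiated cells to EB differed between H9 and H1 for 3195 genes, by a test of the difference itself in limma. Of genes above the array median on all 8 arrays, the change in H9 was the more positive by 2.99 log2 units for CDH6, 2.60 for COL3A1, 2.45 for QPCT, 2.43 for COL12A1, 2.31 for SEMA3C, 2.29 for IGFBP7, 2.15 for DACT1 and 2.11 for ZIC1. Each of these genes had a lower undifferentiated mean in H9 than in H1, and for COL3A1, QPCT and ZIC1 the EB mean was lower in H9 too. The change in H9 was the more negative, with differences of -2.52 for DLK1, -2.35 for HINT3, -2.16 for GDA, -1.93 for LHX2, -1.89 for PTP4A1, -1.88 for CFAP96, -1.88 for GATM and -1.79 for MEIOC. In 7 listed genes the 2 lines were called in opposite directions and the difference was called as well. It was 1.81 for NODAL, 1.67 for ACTA2, 0.96 for GDF3 and 0.47 for TPM2, which rose in H9 and fell in H1, except that with arrays centred the H9 changes of GDF3 (-0.0009) and TPM2 (-0.041) were below 0. It was -1.74 for CYP26A1, -0.86 for SOX3 and -0.70 for ZIC2, which fell in H9 and rose in H1. The difference for TPM2 was not called without the first array labelled H9 EB (adjusted p = 0.051 in limma). With H1 EB signal subtracted from the arrays labelled H9 EB the difference was called for 3578 genes at the median and 3731 at the highest check share.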

How the results depend on the processing

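Counts of calls between the states stayed within 1.5 times of 8515, apart from a test against a minimum log2 change of 1 (973 genes, 803 higher and 170 lower) and, for the split, arrays centred on their medians (2810 higher, 6483 lower). Leaving out each array in turn gave 7297 to 7826 calls, 3801 to 4161 higher and 3496 to 3665 lower. The difference between the lines was called for 1646 genes with probe sets averaged, 2015 without trend and robust variance, 3578 and 3731 with H1 EB signal subtracted at the median and the highest share, and 2031 to 3122 with single arrays left out, the lowest without the first H1 EB array (2031) and the first array labelled H9 EB (2072). With the replicate block 8468 genes were called (4421 higher, 4047 lower) and 3070 for the difference; the numbers do not pair the arrays. The median check share was 23.6% to 26.7% and the low-share genes 11 to 12 (6 to 7 plasma proteins) with single arrays left out.

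Of genes named in the text, log2 changes that turned sign with the H1 EB signal subtracted at the median and the highest share alike were -2.05 for AHSG, -1.16 for ALB (0.69 and not called without subtraction), -1.15 for APOA4, -1.10 for APOC3, -1.27 for SERPINA1 and -0.75 for TF. After subtraction at the median share these genes had been set to 0 on both arrays labelled H9 EB. Their log2 changes are fixed by that floor and are not measured falls. Other log2 changes that turned sign were, at the median and then the highest share, -0.23 and -0.37 for GATM, -0.026 and -0.64 for IGFBP3 (0.92 without subtraction), -0.015 and -0.18 for HINT3, -0.051 and -1.39 for TRIM61, -0.18 and -1.38 for TYW3, and -1.43 and -1.98 for ZNF680. Only at the highest share did RBP4 (-1.75), SERPINC1 (-0.24) and CRYZ (-0.038) turn. The check genes set the shares subtracted. With arrays centred, values were -0.27 for CDH1, -0.26 for DNMT3B, -0.034 for EPCAM, -0.25 for GAPDH, -0.041 for TPM2 and -0.0009 for GDF3. With probe sets averaged they were -0.37 for CDH1, 0.28 for EDNRB, 0.11 for ETS1, 1.02 for PECAM1, -0.20 for SPRED2 and 0.11 for TGIF1, and the difference from H1 was 0.020 for MEIOC and -0.062 for SOX2. Quantile normalization gave 0.15 for SOX2, which was then called higher. The cause was not tested. Probe sets near the array median limit what can be read of dim genes.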
